A study of Homo sapiens with 6 samples.

Results

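The 10 genes FOS, FOSB, FOSL1, FOSL2, JUN, JUNB, JUND, ATF3, EGR1 and MYC encode AP-1 subunits and other transcription factors of the immediate early response. They were taken by symbol from a table of reads per gene, and 10 of its 29710 genes matched. Gene expression had been measured by paired-end sequencing of stranded RNA libraries in MDA-MB-231, a triple-negative breast cancer line. The tested cells carried SRPK2-FLAG, an overexpressed and tagged form of a kinase that phosphorylates splicing factors (3 libraries), and the reference cells carried an empty vector (3 libraries). The labels call the replicates biological and give no promoter for the construct, no clone number and no harvest time. If cultures were not separate, the p-values measure only the spread between these libraries. The question addressed here is how the levels of these factors stood when SRPK2 was raised.

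AP-1 is a dimer of a Jun protein with a second Jun, a Fos or an ATF protein, joined through a leucine zipper and bound to DNA through the basic region beside it. Fos proteins do not form stable dimers with each other and depend on a Jun partner, whereas Jun proteins can pair among themselves. In resting cells FOS, FOSB and EGR1 are transcribed little, and growth factors or stress induce them within minutes through serum response factor and its ERK-phosphorylated partners. FOSL1, which encodes Fra-1, is induced later and for longer when ERK signalling persists, and it is known for its high level in mesenchymal-type breast cancer lines with an active RAS pathway. MYC, a basic helix-loop-helix factor that dimerizes with MAX, responds to the same mitogens.

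None of the 10 genes passed the threshold, an adjusted p under 0.05 in the edgeR quasi-likelihood test with Benjamini-Hochberg adjustment over all 16515 tested genes. All 10 had passed the filter on low counts. Over all tested genes 0.454% were called (75 genes; 0.381% higher and 0.0727% lower), so a count of 0 among 10 is near that background. At an unadjusted p under 0.05, 4 of the 10 lay lower with SRPK2 and 0 higher, where 8.1% of all tested genes lay lower at that level (17.2% in both directions). DESeq2 called 1 of the 10, EGR1, and 1.07% of the genes it gave an adjusted p. With no filter on low counts edgeR called 2, EGR1 and JUND, and 3.36% of all genes. In 6 members, FOS, FOSB, EGR1, JUN, JUND and MYC, all 3 SRPK2 libraries lay below all 3 empty-vector libraries, where 8.69% of all tested genes did. In 0 members did they all lie above, where 11.5% of all tested genes did, and over both directions 20.1% of genes had no overlap. The members' median log2 fold change was -0.10, against 0.004 over all tested genes.

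The count of 6 depended in part on scaling. It was 5 with libraries scaled by size alone, where JUN overlapped and 6.79% of all genes lay below. With that scaling JUNB lay above in every SRPK2 library, as did 13.2% of all genes. The count below was 4 in the deposited FPKM values, where JUN and FOSB did not separate and 5.94% of all genes lay below. For FOSB this was a tie at 0.14 FPKM between SRPK2 replicate 3 and empty-vector replicate 1, in values rounded to 2 decimals. An exact two-sided permutation test of log2 CPM gave p = 0.1 for each of the 6, the smallest that 3 libraries against 3 allow. In RNA from whole cultures, fewer cells with a transcript and less of it per cell cannot be told apart.

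The promoters shown are those of EGR1, FOSB, FOS and JUND, the members with a RefSeq promoter whose groups did not overlap and whose log2 fold changes were furthest from 0. Each run is the 250 bases before the RefSeq transcription start (GRCh38.p14), read 5′ to 3′ on the strand of the gene. Capitals mark a match to 1 of 5 motifs searched on both strands: the AP-1 site TGACTCA, the cyclic AMP response element TGACGTCA, the CArG box of serum response factor, the TATA box TATAAA and the EGR1 site GCGTGGGCG. A CArG box can hold the TATA letters, so those searches can overlap.
EGR1 promoter, chr5:138465229-138465478, plus strand: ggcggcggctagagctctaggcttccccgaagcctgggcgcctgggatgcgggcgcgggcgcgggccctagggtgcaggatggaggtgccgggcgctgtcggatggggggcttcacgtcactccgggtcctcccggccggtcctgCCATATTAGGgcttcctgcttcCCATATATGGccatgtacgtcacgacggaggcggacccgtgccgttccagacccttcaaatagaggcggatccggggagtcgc
FOSB promoter, chr19:45467746-45467995, plus strand: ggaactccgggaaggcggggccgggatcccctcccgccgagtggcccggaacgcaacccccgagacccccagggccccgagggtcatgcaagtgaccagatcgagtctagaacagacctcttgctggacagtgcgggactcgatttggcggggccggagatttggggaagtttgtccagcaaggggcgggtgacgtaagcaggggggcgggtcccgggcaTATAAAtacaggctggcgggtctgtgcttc
FOS promoter, chr14:75278578-75278827, plus strand: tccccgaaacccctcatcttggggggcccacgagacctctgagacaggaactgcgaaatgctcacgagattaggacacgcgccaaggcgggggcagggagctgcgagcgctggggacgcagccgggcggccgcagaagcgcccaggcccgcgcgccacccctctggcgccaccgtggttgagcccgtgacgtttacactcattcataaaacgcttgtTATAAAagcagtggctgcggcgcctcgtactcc
JUND promoter, chr19:18281623-18281872, minus strand: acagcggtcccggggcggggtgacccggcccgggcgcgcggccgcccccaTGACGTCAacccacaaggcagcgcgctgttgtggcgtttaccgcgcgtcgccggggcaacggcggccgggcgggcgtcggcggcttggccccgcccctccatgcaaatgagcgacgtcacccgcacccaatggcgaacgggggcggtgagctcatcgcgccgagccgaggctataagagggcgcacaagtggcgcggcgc

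In the EGR1 window the capitals are a pair of CArG boxes, CCATATTAGG from -105 to -96 and CCATATATGG from -83 to -74, counted in bases before the start. A CArG box stood in 1.16% of 35116 RefSeq promoter windows of that length. FOS and FOSB each held the letters TATAAA, from -33 to -28 in FOS and from -30 to -25 in FOSB, which 10.7% of windows held. JUND held 1 cyclic AMP response element, TGACGTCA, from -200 to -193, found in 1.65% of windows. JUNB held TATAAA from -31 to -26, and 1 of the 2 ATF3 windows held it from -230 to -225. FOSL2 and JUN held no match. The AP-1 site was in none of the members' windows, with 4.2% of all windows holding it, and the EGR1 site in none, with 0.72%. The table held promoters for 8 of the 10 members, and those of FOSL1 and MYC were not matched. These are matches of letters within 250 bases, and bases further upstream were not searched. A window without a motif therefore does not show that the gene lacks it, and the matches say nothing of the factors' binding.

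Reads counted on genes came to 31140537, 35262735 and 36908878 in the SRPK2 libraries, against 35698295, 33590410 and 36225361 in the empty-vector ones. SRPK2 itself was 6.52-fold higher in the SRPK2 libraries (edgeR adjusted p = 2.94e-08). The line's own markers VIM, CD44, EGFR, KRT8, KRT18, AXL and CAV1 were all read, with summed FPKM (fragments scaled to gene length and library size) of 1263 to 1329 in SRPK2 libraries and 1262 to 1294 in empty-vector libraries. ESR1 had at most 2 reads and PGR at most 4 in a library, and ERBB2 stood between 3.95 and 4.75 FPKM. With the epithelial markers CDH1 and EPCAM these 5 genes summed to 10.26 to 10.71 FPKM in SRPK2 libraries and 9.60 to 10.42 in empty-vector libraries. Of the leukocyte and endothelial markers analysed here, PTPRC and VWF were at or near 0. The leukocyte sum, of PTPRC and CD14, was 2.87 to 3.36 FPKM in SRPK2 libraries and 3.10 to 3.41 in empty-vector libraries, and the endothelial sum, of PECAM1 and VWF, 0.35 to 0.46 FPKM in SRPK2 libraries and 0.35 to 0.54 in empty-vector libraries. The 4 fibroblast markers summed to 1.80 to 1.90 FPKM in SRPK2 libraries against 1.28 to 1.38 in empty-vector libraries, and their part in the results was not tested. On the first principal component SRPK2 replicate 2 lay nearest to the controls of the 3 SRPK2 libraries.

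Levels between genes are compared in the deposited FPKM, which divides by gene length. FOSL1 was the most abundant member, at 171.6 ± 8.93 FPKM in SRPK2 cells and 163.0 ± 6.45 FPKM in empty-vector cells (SD, n = 3 each). It ranked 161 of 29256 genes by mean FPKM in SRPK2 cells and 193 in empty-vector cells. JUND, JUN, MYC, JUNB and FOSL2 followed in that order in both groups, from 38.0 to 19.7 FPKM in SRPK2 cells and from 42.5 to 18.3 FPKM in empty-vector cells. EGR1 stood at 2.21 ± 0.30 FPKM in SRPK2 cells and 2.96 ± 0.43 FPKM in empty-vector cells, and ATF3 at 2.07 ± 0.13 FPKM in SRPK2 cells and 1.94 ± 0.10 FPKM in empty-vector cells. FOS and FOSB were below 1 FPKM in every library. Neighbours in this order were separate in every library of the empty-vector group. In the SRPK2 group JUNB and FOSL2 overlapped, at 21.33 to 23.12 and 17.84 to 21.38 FPKM, and so did EGR1 and ATF3, at 1.92 to 2.51 and 1.92 to 2.17 FPKM.

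**Figure D1:**
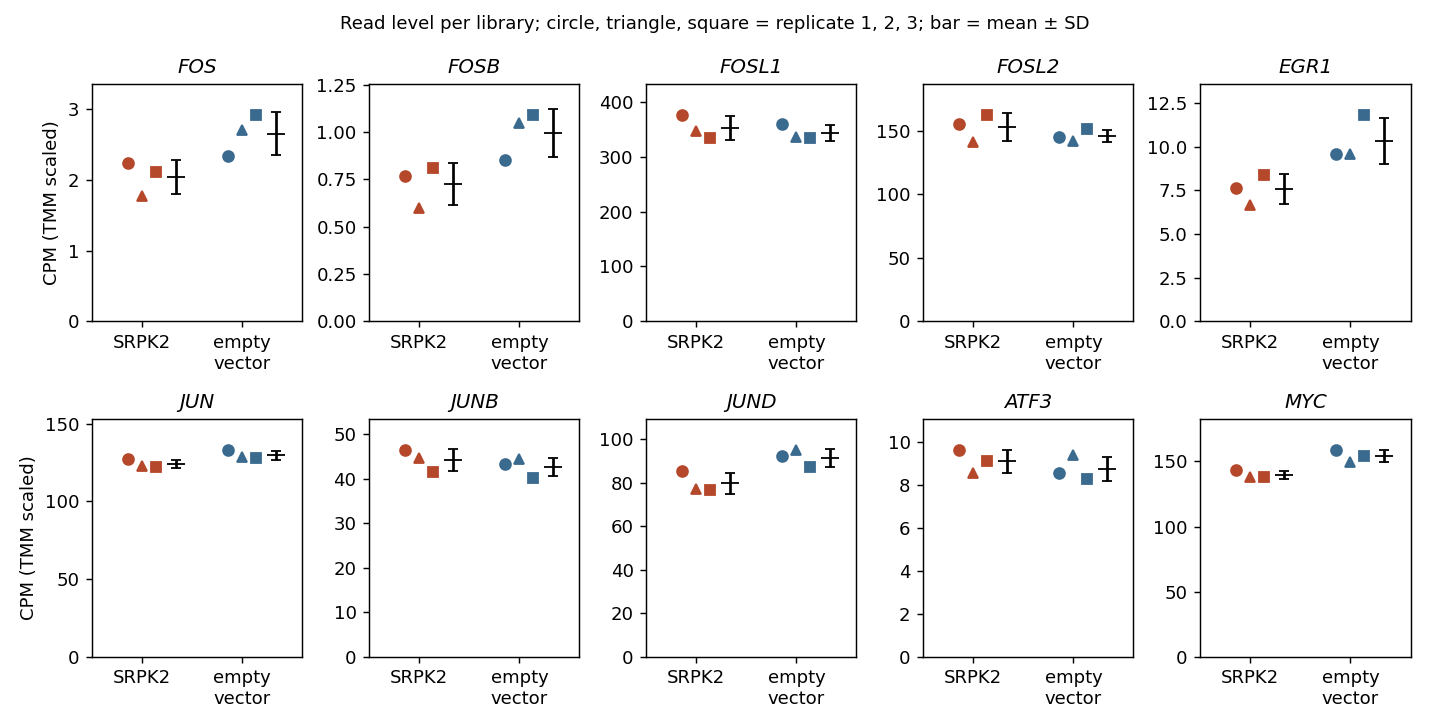
Level in CPM (read count scaled to library size, here by TMM, y axis from 0) of each member in the 3 SRPK2 and 3 empty-vector libraries, with the mean ± SD beside the points. FOS, FOSB, EGR1, JUN, JUND and MYC have no overlap between the groups, and the other 4 overlap.

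FOSL1 (chromosome 11, 65892049 to 65900573, minus strand, GRCh38, GENCODE 29), the gene of Fra-1, had 377, 347 and 333 CPM in SRPK2 cells and 359, 336 and 334 CPM in empty-vector cells. CPM is a read count scaled to library size. The groups overlapped, and SRPK2 replicate 1 was the highest library. The log2 fold change was 0.04 (SE 0.06, 95% interval -0.09 to 0.17, edgeR adjusted p = 0.761). The value was -0.017 without SRPK2 replicate 1. Its processed pseudogene FOSL1P1 had at most 5 reads in a library, against at least 10922 for FOSL1.

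FOSL2 (chromosome 2, 28392448 to 28417312, plus strand), which encodes the related Fra-2, had 155, 141.0 and 163 CPM in SRPK2 cells and 145, 142 and 151 CPM in empty-vector cells. The lowest library of all was SRPK2 replicate 2 and the 2 highest were SRPK2 replicates 3 and 1, so the groups overlapped. The fitted log2 fold change of FOSL2 was 0.07 (SE 0.06, 95% interval -0.06 to 0.20, edgeR adjusted p = 0.568). Single libraries decided this value, which was 0.12 without SRPK2 replicate 2 and 0.018 without SRPK2 replicate 3. Without SRPK2 replicate 2 both remaining SRPK2 libraries lay above the controls, as they did for 21.6% of all tested genes. The intronic transcript AC104695.3 and the antisense FLJ31356 overlap FOSL2 but had at most 12 and 7 reads in a library.

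FOS (chromosome 14, 75278774 to 75282230, plus strand), the founding member of the family, was rare in both groups. It had 70, 62 and 81 reads in SRPK2 libraries and 82, 88 and 107 reads in empty-vector libraries. Scaled to library size these were 2.24, 1.77 and 2.11 CPM in SRPK2 cells and 2.33, 2.71 and 2.92 CPM in empty-vector cells, without overlap. SRPK2 replicate 1 lay only just under empty-vector replicate 1. FOS had a fitted log2 fold change of -0.38 (SE 0.15, 95% interval -0.71 to -0.05), with an edgeR p of 0.0270 before and 0.239 after adjustment. At this depth counting error alone gives a coefficient of variation of 11.1% per library.

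FOSB (chromosome 19, 45467995 to 45475179, plus strand), a Fos protein induced together with FOS, had 24, 21 and 31 reads in SRPK2 libraries and 30, 34 and 40 reads in empty-vector libraries. In CPM these were 0.766, 0.600 and 0.809 in SRPK2 cells and 0.853, 1.05 and 1.09 in empty-vector cells. The scaled groups did not overlap, but the raw reads did. For FOSB the log2 difference was -0.46 (SE 0.23, 95% interval -0.95 to 0.03, edgeR adjusted p = 0.318). Counting error alone gives 18.3% per library. ERCC1 overlaps FOSB on the opposite strand and had 1998 to 2306 reads, and since the strand setting of the counting is not given in the sources used here, some FOSB reads may belong to it.

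Within the Fos family the make-up by FPKM was nearly the same in both groups. FOSL1 took 89.4% ± 0.99 of the summed FPKM in SRPK2 cells and 89.5% ± 0.60 in empty-vector cells (SD, n = 3 each). FOSL2 took 10.25% ± 0.96 in SRPK2 cells and 10.04% ± 0.53 in empty-vector cells. FOS took 0.305% ± 0.031 in SRPK2 cells and 0.411% ± 0.060 in empty-vector cells, and FOSB under 0.1% in every library. The family's summed FPKM was 202, 185 and 188 in SRPK2 cells and 189, 176 and 182 in empty-vector cells, with overlapping groups. The sum is close to the FOSL1 level itself, so a change in FOS or FOSB of the size seen hardly moves it.

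**Figure D2:**
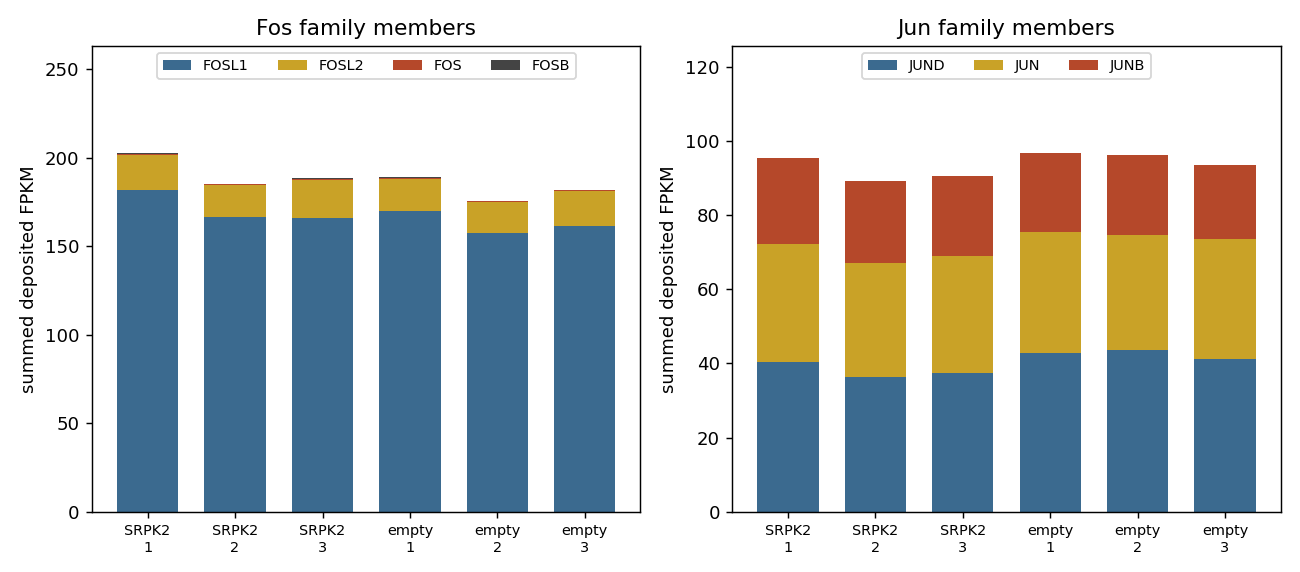
Deposited FPKM of the Fos (left) and Jun (right) family members stacked per library, y axes from 0, SRPK2 libraries left of empty-vector libraries. FOSL1 fills about 89% of each Fos bar, and the JUND layer is smaller in all 3 SRPK2 libraries.

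JUN (chromosome 1, 58780788 to 58784327, minus strand) encodes c-Jun, the strongest transactivator of the family. It had 127, 123 and 122 CPM in SRPK2 cells and 133, 128 and 128 CPM in empty-vector cells. The groups did not overlap, but the gap between the nearest libraries was below 1 CPM. Its log2 fold change was -0.06 (SE 0.05, 95% interval -0.17 to 0.04, edgeR adjusted p = 0.493).

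JUNB (chromosome 19, 12791496 to 12793315, plus strand), which can oppose c-Jun at many promoters, had 46.5, 44.6 and 41.5 CPM in SRPK2 cells and 43.2, 44.4 and 40.3 CPM in empty-vector cells. Replicate 3 was the lowest library of each group, and the groups overlapped. JUNB differed by 0.05 on the log2 scale (SE 0.06, 95% interval -0.08 to 0.18, edgeR adjusted p = 0.682). HOOK2 overlaps JUNB on the opposite strand, with 387 to 546 reads per library against 1441 to 1591 for JUNB. HOOK2 stood at 13.8 ± 0.40 CPM in SRPK2 cells and 12.3 ± 0.59 CPM in empty-vector cells (SD, n = 3 each, edgeR adjusted p = 0.244), and its part in the JUNB value was not tested.

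JUND (chromosome 19, 18279760 to 18281622, minus strand), the Jun protein expressed in most resting cells, had 85.5, 77.2 and 76.5 CPM in SRPK2 cells and 92.3, 95.1 and 87.1 CPM in empty-vector cells. All 3 SRPK2 libraries were lower, although SRPK2 replicate 1 came within 2 CPM of empty-vector replicate 3. The log2 fold change was -0.20 (SE 0.06, 95% interval -0.33 to -0.07), with an edgeR p of 0.00504 before and 0.164 after adjustment. With no filter on low counts the edgeR adjusted p was 0.0410, and over 16 unpaired alternatives it ran from 0.0410 to 0.462. A term for replicate number in the edgeR model gave 3.71e-05, but 3899 of 16515 tested genes were then called.

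The ratio of 2 genes in a library needs no scaling. There were 1.84, 1.73 and 1.84 JUND reads per JUNB read in SRPK2 libraries and 2.14, 2.14 and 2.16 in empty-vector libraries. The groups were apart by several times the spread within either, with a mean difference of -0.25 on the log2 scale (exact two-sided permutation p = 0.1, the smallest possible). This ratio was chosen after the values were seen. By FPKM, JUND took 41.4% ± 0.79 of the Jun family in SRPK2 cells and 44.5% ± 0.64 in empty-vector cells (SD, n = 3 each). JUN took 34.4% ± 0.85 in SRPK2 cells and 33.6% ± 1.01 in empty-vector cells, and JUNB 24.2% ± 0.60 in SRPK2 cells and 21.9% ± 0.39 in empty-vector cells. JUND stayed the most abundant Jun transcript in every library.

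ATF3 (chromosome 1, 212565334 to 212620777, plus strand), a stress-induced bZIP protein that pairs with Jun proteins, had 9.61, 8.55 and 9.10 CPM in SRPK2 cells and 8.56, 9.36 and 8.25 CPM in empty-vector cells. The libraries of both groups were interleaved. Its fitted log2 fold change was 0.06 (SE 0.09, 95% interval -0.13 to 0.24, edgeR adjusted p = 0.743).

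EGR1 (chromosome 5, 138465490 to 138469315, plus strand), a zinc-finger factor and a standard readout of recent ERK activity, came closest to the threshold. It had 239, 233 and 321 reads in SRPK2 libraries and 337, 310 and 433 reads in empty-vector libraries, or 7.63, 6.66 and 8.37 CPM in SRPK2 cells and 9.59, 9.55 and 11.8 CPM in empty-vector cells. The groups did not overlap, and empty-vector replicate 3 stood above the other controls. The log2 fold change was -0.45 (SE 0.11, 95% interval -0.69 to -0.21), a level 0.732 times that of the controls, with an edgeR p of 0.00134 before and 0.113 after adjustment. EGR1 ranked 194 of the 16515 genes by p. The call depended on the method. DESeq2 gave an adjusted p of 0.0349 and edgeR with no filter on low counts 0.000332, and over 16 unpaired alternatives the range was 0.000332 to 0.473. A term for replicate number in the edgeR model gave 6.58e-05, but 3899 of 16515 tested genes were then called. Leaving out 1 library moved the log2 fold change between -0.54 and -0.34.

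MYC, on chromosome 8, had 143, 138 and 138 CPM in SRPK2 cells and 159, 149.8 and 154 CPM in empty-vector cells. The lowest control lay above the highest SRPK2 library. The log2 fold change was -0.14 (SE 0.05, 95% interval -0.25 to -0.04), with an edgeR p of 0.0130 before and 0.203 after adjustment. Over 16 unpaired alternatives the adjusted p ran from 0.139 to 0.515. With a term for replicate number in the edgeR model the adjusted p of MYC was 0.000206, but 3899 of 16515 tested genes were then called.

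**Figure D3:**
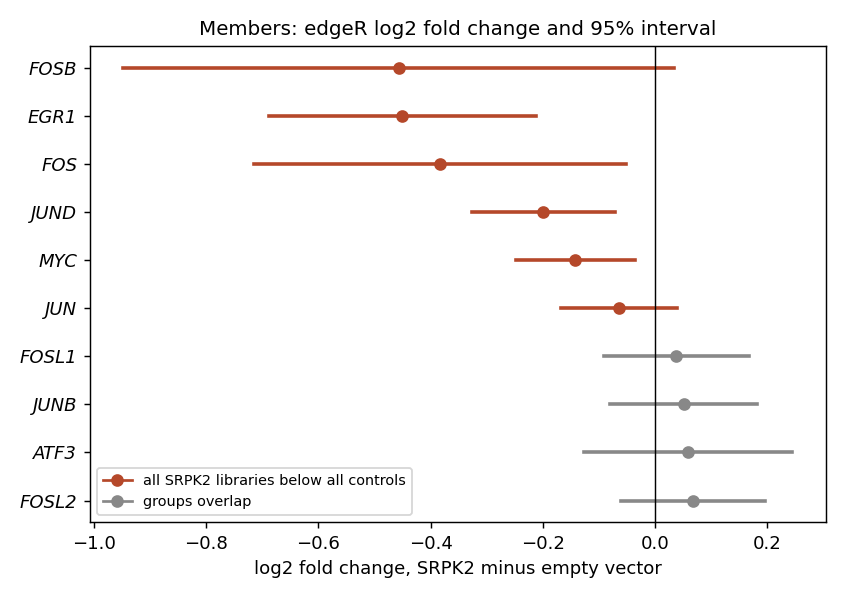
edgeR log2 fold change (x axis, SRPK2 minus empty vector) of each member with its 95% interval. The intervals of EGR1, FOS, JUND and MYC lie below 0, unadjusted for the number of genes, and those of the other 6 cross it.

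FOS, FOSB and EGR1 varied most between libraries. As deviations of log2 CPM from the gene's mean, FOS had -0.05, -0.38 and -0.13 in SRPK2 libraries and 0.01, 0.22 and 0.33 in empty-vector libraries. EGR1 had -0.20, -0.40 and -0.07 in SRPK2 libraries and 0.12, 0.12 and 0.43 in empty-vector libraries, and FOSB -0.13, -0.46 and -0.06 in SRPK2 libraries and 0.01, 0.29 and 0.35 in empty-vector libraries. In all 3 genes SRPK2 replicate 2 was the lowest library and empty-vector replicate 3 the highest. FOSL1, JUNB, FOSL2, JUN, MYC and ATF3 stayed within 0.13 of their means in every library. The log2 fold changes without SRPK2 replicate 2 were -0.29 for FOS, -0.34 for FOSB and -0.37 for EGR1. Their sign could hardly change, since the groups of these 3 genes did not overlap.

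**Figure D4:**
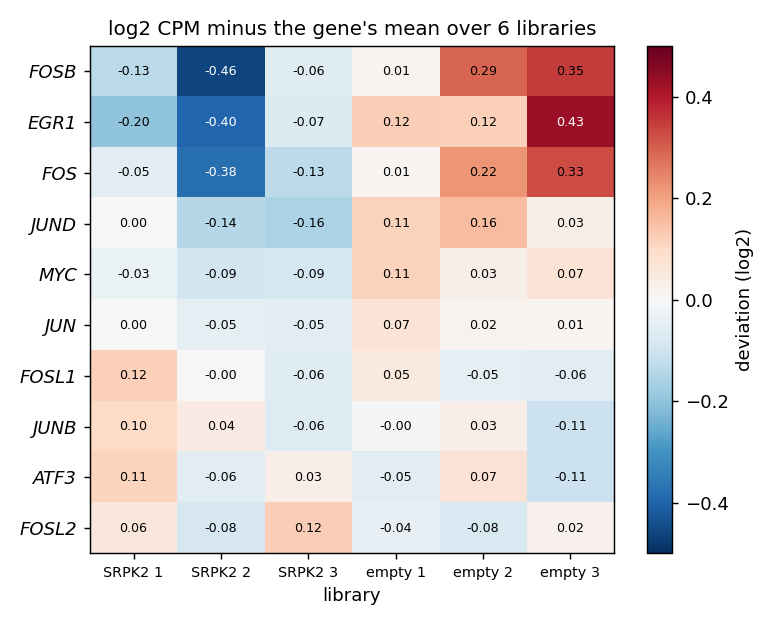
Deviation of log2 CPM from each gene's mean over the 6 libraries (colour and printed value), members in rows by log2 fold change and libraries in columns. FOSB, EGR1 and FOS are lowest in SRPK2 replicate 2 (-0.46, -0.40 and -0.38) and highest in empty-vector replicate 3 (0.35, 0.43 and 0.33).

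Likeness to FOS was measured as the root mean square difference of these deviations over the 6 libraries, among 13753 other tested genes with at least 1 CPM on average. The nearest were the transcript RP11-867G23.4 at 0.06, C10orf90 at 0.07 and LOXL3, a lysyl oxidase family gene, at 0.09. The median over all candidates was 0.25 and the root mean square deviation of FOS itself was 0.23. For FOSL1 the nearest were NRSN2 at 0.0078, MFSD12 at 0.018 and ANXA11, an annexin gene, at 0.020, with a median of 0.11 and a deviation of FOSL1 itself of 0.065. With 6 libraries and this many candidates some genes lie close to any pattern, and these are descriptions.

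The genes around the members were compared by lists that were chosen with earlier results of these data known. Of 24 other immediate early genes 20 were tested, 1 rose and 0 fell, where 0.381% of all tested genes rose and 0.0727% fell. The list's median log2 fold change was -0.02. The one that rose was KLF4, a zinc-finger factor, at 79.4, 78.9 and 80.7 CPM in SRPK2 cells and 69.2, 64.9 and 65.5 CPM in empty-vector cells (log2 fold change 0.26, SE 0.05, edgeR adjusted p = 0.0467). All 3 SRPK2 libraries lay above all 3 controls. Its call was lost with RLE size factors (edgeR adjusted p = 0.0513), on log2 FPKM and without any 1 library other than SRPK2 replicate 2 (0.133 to 0.191). EGR2, EGR3, EGR4 and ARC had too few reads to be tested.

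Signal inputs to the members, the ERK, JNK and p38 kinases with serum response factor and its partners, had 0 of 21 genes past the threshold and a median of 0.04. MAP2K2, a kinase that activates ERK, differed by -0.06 on the log2 scale (SE 0.06, edgeR adjusted p = 0.607), and ELK3, a ternary complex factor, 0.06 (SE 0.05, edgeR adjusted p = 0.528). The intervals of these 2 genes reached no further than 0.19 from 0. Gene counts give no information on kinase activity or protein phosphorylation.

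Feedback regulators, the phosphatases, Sprouty proteins and RNA-decay factors that shut the response off, had 0 of 20 genes past the threshold and a median of 0.05. NFKBIA, the inhibitor of NF-kB, had 127, 132 and 122 CPM in SRPK2 cells and 114, 114 and 112 CPM in empty-vector cells (log2 fold change 0.16, SE 0.05, edgeR adjusted p = 0.170). DUSP6, the ERK phosphatase whose level tracks ERK output, had 189.9, 188 and 193 CPM in SRPK2 cells and 195, 195 and 207 CPM in empty-vector cells (-0.07, SE 0.05, edgeR adjusted p = 0.506). The groups did not overlap for either gene, which stood apart in opposite directions.

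Partners of Fos and Jun proteins among other bZIP genes had 0 of 17 tested genes past the threshold and a median of 0.03. ATF4, the stress-response factor and by FPKM the most abundant of them, differed by -0.12 on the log2 scale (SE 0.06, edgeR adjusted p = 0.318), and DDIT3, its target CHOP, -0.16 (SE 0.10, edgeR adjusted p = 0.438). In both the groups overlapped. The MAX network had 0 of 13 tested genes past the threshold and a median of 0.01. MAX, the obligate partner of MYC, had -0.02 (SE 0.05, edgeR adjusted p = 0.872) and MLX, a related partner, -0.05 (SE 0.05, edgeR adjusted p = 0.635).

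Genes known as AP-1 targets had 2 of 24 tested members that fell and 0 that rose, with a median of -0.03. Over all tested genes 0.0727% fell and 0.381% rose. Without overlap between groups, 5 of the 24 lay below in every SRPK2 library and 2 above, where 8.69% and 11.5% of all tested genes did. IL24, a cytokine gene, stood at 27.7, 31.7 and 28.2 CPM in SRPK2 cells and 43.4, 42.8 and 40.4 CPM in empty-vector cells (log2 fold change -0.53, SE 0.06, edgeR adjusted p = 0.00234). PTGS2, the inducible cyclooxygenase, stood at 12.7, 12.9 and 13.2 CPM in SRPK2 cells and 17.6, 15.7 and 18.1 CPM in empty-vector cells (-0.41, SE 0.07, edgeR adjusted p = 0.0297). In both genes the groups were well apart. The PTGS2 call was lost without SRPK2 replicate 1 or 3 or empty-vector replicate 1 or 3 (edgeR adjusted p 0.0561 to 0.184), with library size alone (0.0545) and on log2 FPKM (limma, 0.151 to 0.368). IL24 kept its call without each single library, and missed it only on log2 FPKM with no filter (limma adjusted p = 0.0857). Both genes had been called in earlier results of these data, so they are no independent evidence on AP-1, and the other 22 targets had values between -0.24 and 0.25.

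Heat shock genes, which respond to protein stress, had 0 of 14 past the threshold, with a median log2 fold change of -0.05. All 14 values lay below 0, as did those of 8064 of the 16515 tested genes, and the highest was -0.005. These signs were read with TMM scaling only. With library size alone the median over all tested genes was 0.04, against 0.004, so values this small could change sign. HSP90AB1, a cytosolic chaperone gene, had -0.02 (SE 0.05, edgeR adjusted p = 0.903) and HSPA8, the constitutive HSP70 gene, -0.12 (SE 0.06, edgeR adjusted p = 0.315). Their summed level was 9279, 9746 and 9176 CPM in SRPK2 libraries and 9705, 10012 and 9656 CPM in empty-vector libraries, with overlapping groups. SRPK2 replicate 2, lowest for FOS, FOSB and EGR1, had the highest heat shock sum of its group. The part of these genes in the members' values was not tested.

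**Figure D5:**
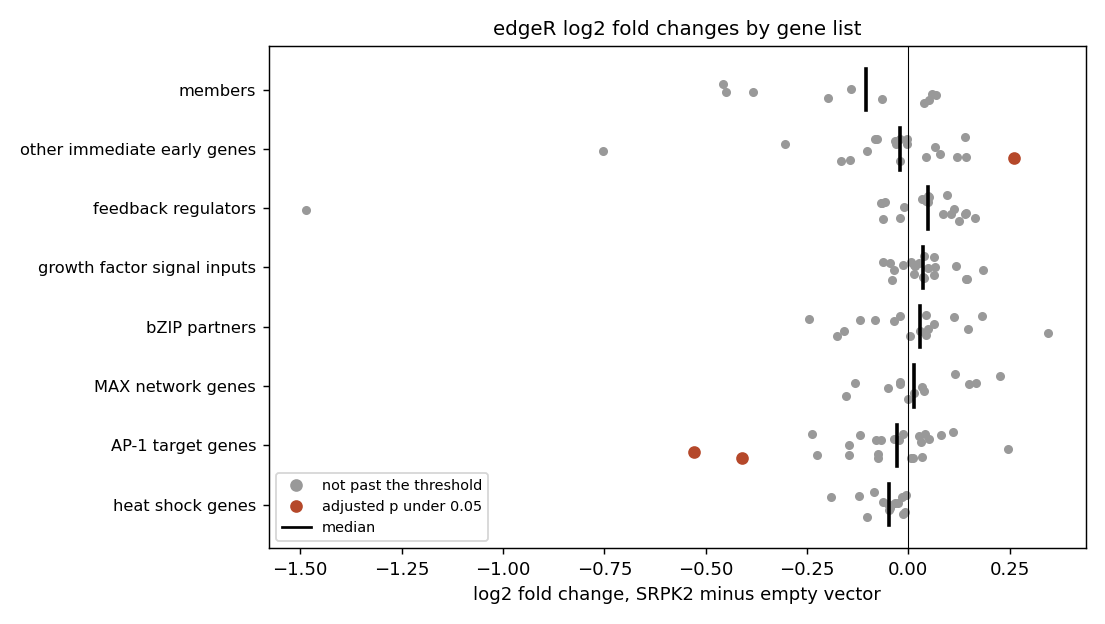
edgeR log2 fold change (x axis, SRPK2 minus empty vector) of each tested gene in the members and 7 related lists, with a bar at each list's median. Coloured points passed the threshold: KLF4 among other immediate early genes (0.26) and IL24 (-0.53) and PTGS2 (-0.41) among AP-1 targets.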

How the data were processed

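RNA of 6 MDA-MB-231 libraries was analysed, grouped by their titles. The submitters' processing notes name bcl2fastq, FastQC, HISAT2 and the build GRCh38. Which program counted the reads, with what strand setting and which annotation release, is not given in the sources used here. The authors deposited whole-number counts per gene (29710 genes, not normalized) and FPKM values (29256 genes, rounded to 2 decimals), per the file headers and values.

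The test of the counts was edgeR 4.0.16 under R 4.3.3 (filterByExpr, TMM, glmQLFit and glmQLFTest, group as the only term, two-sided, Benjamini-Hochberg over 16515 genes). Each SE is the size of the log2 fold change divided by the root of its F, and 95% intervals use the t distribution of the fit's degrees of freedom. The biological coefficient of variation was 5.85%. CPM are TMM scaled, and log2 CPM have a prior count of 2. Libraries held 31140537 to 36908878 reads, and tested genes held 99.9% of them. Within each group every pair of replicates differed beyond counting noise, with chi-square values per degree of freedom between 4.44 and 15.2. The code was tested on simulated counts.

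The members, the lists and the rule for named genes were chosen with earlier results of these data known. The rule named the members, SRPK2, up to 4 called genes per list or else its 2 most abundant by FPKM, the 2 most abundant bZIP partners and MAX network genes, and the 3 genes nearest to FOS and to FOSL1. Alternatives were RLE factors, library size alone, no filter, a filter at a mean of 5 CPM, the DESeq2 1.42.0 test, voom from limma 3.58.1, and limma on log2 FPKM with a pseudocount of 1 or 0.1 (filtered at a mean FPKM of 0.5, the first also unfiltered). Others were the replicate block, a loess correction for gene length (span 0.3) with and without the block, and leaving out each library. Counts of members without overlap under other scalings and without each library were added after the data were seen. Positions and overlaps come from GENCODE 29 (GRCh38), and promoters from RefSeq (GRCh38.p14). Figures used Python 3.11.15 and matplotlib 3.10.9.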

Additional observations from a re-analysis of the deposited data

How the results depend on the processing

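The log2 fold changes of the members other than FOSL1 kept their sign under all alternatives run, and FOSL1 ran from -0.017 (without SRPK2 replicate 1) to 0.088 (gene length correction), with 0.074 the highest value when 1 library was left out. FOS and FOSB had no value where a filter removed them. SRPK2 stayed between 2.53 and 2.81 and past the threshold. With no filter on low counts 997 genes were called (390 higher, 607 lower), with 2 members (EGR1 and JUND), 2 other immediate early genes, 1 feedback regulator, 4 AP-1 targets and 1 heat shock gene. DESeq2 called 153 genes, with 1 member (EGR1). On log2 of FPKM plus 1 with no filter 18 genes were called, with 0 other immediate early genes and 0 AP-1 targets, and with the FPKM filter and either pseudocount 0 other immediate early genes and 1 AP-1 target. RLE factors left 0 other immediate early genes, and library size alone 1 AP-1 target. Library size alone also put 1 member above in every SRPK2 library (JUNB), with 13.2% of all genes above. Leaving out 1 library gave 27 (without empty-vector replicate 1) to 1403 (without SRPK2 replicate 2) called genes, and 0 members were called. Among these calls were 0 to 2 other immediate early genes, 0 to 1 feedback regulators, 1 to 4 AP-1 targets and 0 to 1 heat shock genes. The members above in every SRPK2 library were 0 to 1. These were FOSL2 without SRPK2 replicate 2 (21.6% of all genes above) and JUNB without SRPK2 replicate 3 (13.2%). The causes were not tested.

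The labels do not say whether libraries with the same replicate number were handled together. Deviations of same-numbered libraries from their group means correlated at 0.084, 0.23 and 0.17, and those of the other pairs at -0.165 to -5.48e-05. Each SRPK2 library thus correlated best with its own number, and a shared batch was not tested. With the replicate block 3899 of 16515 tested genes were called (1753 higher, 2146 lower), a large background for the members. Among them were 3 of the 10 members, all lower: EGR1 (edgeR adjusted p = 6.58e-05), JUND (3.71e-05) and MYC (0.000206). Of the lists, 5 bZIP partners, 6 other immediate early genes, 3 signal inputs and 5 feedback regulators were called. So were 9 AP-1 targets, 2 MAX network genes and 4 heat shock genes. With the block and the gene length correction 3302 of 15647 tested genes were called, with 4 of the 10 members (FOSL1 also, higher). Of the lists, 1 bZIP partner, 6 other immediate early genes, 3 signal inputs and 3 feedback regulators were then called. So were 8 AP-1 targets, 1 MAX network gene and 4 heat shock genes. Low reads limit FOS and FOSB.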

Other observations

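Of the 20 tested other immediate early genes 5 lay below in every SRPK2 library and 2 above, and of the 20 feedback regulators 3 lay below and 2 above, where 8.69% of all tested genes lay below and 11.5% above. The genes described here were chosen after their values were seen. Other genes of these lists at under 1 CPM overlapped between groups with values above 0, NR4A3 at 0.14, BTG2 at 0.14 and DUSP8 at 0.14 on the log2 scale. DUSP2, a nuclear phosphatase of ERK, had 7, 6 and 14 reads in SRPK2 libraries and 25, 19 and 32 reads in empty-vector libraries (log2 fold change -1.49, SE 0.33, edgeR adjusted p = 0.0809). Its groups did not overlap. It passed with no filter on low counts (edgeR adjusted p = 0.00160) and without SRPK2 replicate 2 (0.0435).

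NR4A1, an orphan nuclear receptor induced by the same stimuli as EGR1, had 19, 36 and 48 reads in SRPK2 libraries and 53, 60 and 59 reads in empty-vector libraries (log2 fold change -0.75, SE 0.23, edgeR adjusted p = 0.176). SRPK2 replicate 1 was its lowest library, unlike FOS, FOSB and EGR1. NR4A2, its relative, had 2.02 ± 0.30 CPM in SRPK2 cells and 2.50 ± 0.23 CPM in empty-vector cells (SD, n = 3 each, edgeR adjusted p = 0.336). IER3, an abundant early response gene, had 540.5, 569.9 and 508 CPM in SRPK2 cells and 624, 605 and 587 CPM in empty-vector cells (log2 fold change -0.17, SE 0.06, edgeR adjusted p = 0.206). In the other direction, CCN1 and KLF4 were the 2 genes of that list above in every SRPK2 library. CCN1 had 1215, 1213 and 1247 CPM in SRPK2 cells and 1150, 1156 and 1177.5 CPM in empty-vector cells (log2 fold change 0.08, SE 0.05, edgeR adjusted p = 0.447).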
